A study of Mus musculus with 10 samples.

Results

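The genes described here are the cytochrome P450 genes of families 1 to 3, the families that hold most enzymes of drug, steroid and foreign compound metabolism. They were chosen by name alone, as every gene whose symbol starts with Cyp1, Cyp2 or Cyp3 followed by a letter, with pseudogenes left out. This gave 56 of the 19271 genes measured, 3 of them in Cyp1, 44 in Cyp2 and 9 in Cyp3, spread over 16 subfamilies. A further 4 protein-coding genes with such names, Cyp2b19, Cyp2c66, Cyp2j11 and Cyp2w1, were not analysed here. The data are poly(A)-selected RNA sequencing of the liver of 10 C57BL6/N mice that were 2 months old. Their genotypes concern Htra2, which encodes HtrA2/Omi, a serine protease of mitochondria, and in S400D an aspartate stands in place of a serine. There were 3 wild-type males (WT/WT), 3 heterozygous males (S400D/WT), 3 homozygous males (S400D/S400D) and 1 homozygous female (S400D/S400D), and the labels name no treatment. No label gives a litter, a collection time or the origin of the wild-type mice, so a p-value here speaks only of the spread among these animals. Libraries held 16240441 to 17264289 estimated reads, and the S400D change alters the protein, so the RNA level of Htra2 does not check the genotype labels.

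Enzymes of these families sit in the endoplasmic reticulum of hepatocytes, carry haem, and take electrons from the reductase encoded by Por and from cytochrome b5. Receptors switch single subfamilies on: the aryl hydrocarbon receptor acts on Cyp1a genes, CAR (Nr1i3) is best known for Cyp2b10, and PXR (Nr1i2) for Cyp3a11. In mouse liver many members also differ between males and females, since the sex-specific pulses of growth hormone act through Stat5b, Bcl6 and Cux2. Most members arose by repeated duplication and still lie side by side.

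On GRCm38.p6, 14 members lie on chromosome 7 (Cyp2a, Cyp2b, Cyp2e1, Cyp2f2, Cyp2g1 and others), the 14 Cyp2c genes on chromosome 19 between 39006940 and 44029256, and the 8 Cyp2d genes on chromosome 15 between 82370527 and 82794452. The 9 Cyp3a genes lie on chromosome 5 between 137892933 and 146114978, the 6 Cyp2j genes on chromosome 4, and Cyp1a1 and Cyp1a2 on chromosome 9. Cyp2u1 (chromosome 3), Cyp2ab1 (chromosome 16) and Cyp1b1 (chromosome 17) have no other member on their chromosome. The duplication bears on how well reads separate the members. In a search of the longest coding transcript of each gene, 36 of 56 members had at least 95% of their 100-base windows found in no other gene. Cyp3a41a (9.18%) and Cyp3a41b (11.8%) had almost none of their own, and Cyp2c40 (55.9%), Cyp2c69 (63.7%), Cyp2c67 (76.3%) and Cyp2c68 (80.2%) shared windows mostly with each other. The values of these 6 genes are therefore uncertain, because the authors' counting could divide their reads. Cyp2c38 lies inside the annotated span of Cyp2c39, although all windows of both transcripts were their own.

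The promoters of 49 of the 56 members were matched to RefSeq (GRCm38.p6), each as the 250 bases before and the 50 bases after the start. Near-identical pairs are shown first, because the levels of their genes differed widely between the animals described below. Cyp2b9 and Cyp2b13, both on the plus strand of chromosome 7, differed at 2 of the 250 bases before the start, which are printed in capitals (Cyp2b9, chr7:26173159-26173408, and Cyp2b13, chr7:26061245-26061494, both 5′ to 3′).
Cyp2b9: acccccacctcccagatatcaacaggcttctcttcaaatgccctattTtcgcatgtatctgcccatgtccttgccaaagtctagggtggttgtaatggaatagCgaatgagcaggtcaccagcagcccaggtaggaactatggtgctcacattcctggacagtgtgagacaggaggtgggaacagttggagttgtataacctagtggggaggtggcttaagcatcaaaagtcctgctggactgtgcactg
Cyp2b13: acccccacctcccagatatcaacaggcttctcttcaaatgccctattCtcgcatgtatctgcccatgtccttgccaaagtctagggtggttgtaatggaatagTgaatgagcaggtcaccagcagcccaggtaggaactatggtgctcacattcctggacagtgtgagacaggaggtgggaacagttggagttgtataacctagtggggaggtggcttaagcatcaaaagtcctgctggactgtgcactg
For these genes RefSeq's table uses a start inside the annotated gene, so the last 59 (Cyp2b9) and 107 (Cyp2b13) bases printed lie after the first annotated base. Cyp2a4 and Cyp2a5, also on the plus strand of chromosome 7, differed by 4 substitutions and by 1 base present only in each of them, again in capitals (Cyp2a4, chr7:26306942-26307191, and Cyp2a5, chr7:26835089-26835338).
Cyp2a4: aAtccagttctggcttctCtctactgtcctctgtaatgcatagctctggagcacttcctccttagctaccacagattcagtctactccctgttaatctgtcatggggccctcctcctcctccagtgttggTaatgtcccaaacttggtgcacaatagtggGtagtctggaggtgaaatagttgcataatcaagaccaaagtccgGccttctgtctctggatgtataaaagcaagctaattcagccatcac
Cyp2a5: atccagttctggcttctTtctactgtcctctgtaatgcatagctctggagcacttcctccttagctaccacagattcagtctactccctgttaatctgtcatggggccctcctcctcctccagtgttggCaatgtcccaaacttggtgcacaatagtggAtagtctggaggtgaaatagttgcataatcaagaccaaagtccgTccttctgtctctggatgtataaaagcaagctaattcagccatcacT
Over the full 300 bases the Cyp2b pair had 2 differences and the Cyp2a pair 7, the fewest of the pairs compared within subfamilies.

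Both strands of these promoters were searched for 4 fixed sets of letters. The letters CAAAGTCCA, one form of the site of the liver factor HNF4, stood in 10 of 49 member promoters (20.4%), against 0.475% of all 32851 promoters in the table. They were those of 6 Cyp2c genes (Cyp2c40, Cyp2c65, Cyp2c67, Cyp2c68, Cyp2c69 and Cyp2c70) and 4 Cyp3a genes (Cyp3a11, Cyp3a16, Cyp3a41a and Cyp3a41b), many of which are recent copies of each other, so the matches are not independent. The letters GCGTG, the core bound by the aryl hydrocarbon receptor, stood in 9 of 49 (18.4%), against 32.4% of all promoters. TTCNNNGAA, the form bound by Stat5, stood in 1 of 49 (8.3% of all), and TTATGTAA, the form bound by the clock factor Dbp and its relatives, in 0 of 49 (0.938% of all). A match describes letters and not binding. The 150 bases before the start of 4 members are shown with the HNF4 letters in capitals, 5′ to 3′ on the minus strand. They are the most abundant Cyp3a gene (chr5:145879855-145880004), a pair of Cyp2c genes whose promoters had only 3 substitutions besides inserted or deleted bases (chr19:39812815-39812964 and chr19:39886770-39886919), and the most abundant member with these letters on chromosome 19 (chr19:40187287-40187436).
Cyp3a11: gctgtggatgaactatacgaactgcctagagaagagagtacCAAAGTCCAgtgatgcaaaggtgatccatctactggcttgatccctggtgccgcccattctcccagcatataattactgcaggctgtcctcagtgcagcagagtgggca
Cyp2c40: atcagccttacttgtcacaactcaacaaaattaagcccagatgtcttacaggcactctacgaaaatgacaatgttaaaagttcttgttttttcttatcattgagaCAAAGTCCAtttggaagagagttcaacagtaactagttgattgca
Cyp2c69: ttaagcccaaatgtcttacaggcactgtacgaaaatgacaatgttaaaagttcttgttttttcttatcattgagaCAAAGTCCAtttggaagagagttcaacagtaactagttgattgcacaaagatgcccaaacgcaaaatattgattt
Cyp2c70: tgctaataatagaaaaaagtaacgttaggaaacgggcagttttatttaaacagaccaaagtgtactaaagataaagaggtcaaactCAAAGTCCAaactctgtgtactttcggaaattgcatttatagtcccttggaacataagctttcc

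Levels between genes are given as FPKM, which is scaled to transcript length. Over the 9 males, 21 members had a mean of at least 100 FPKM, 17 lay between 1 and 100, and 18 were under 1. Together the 56 genes took 1.76% to 2.54% of all reads in the males and 3.03% in the female. Cyp2e1, which oxidises ethanol and small solvents, was the most abundant, with 4593 ± 831 FPKM (SD, n = 9), and stood 20th among all genes. It alone made up 27.9% (heterozygous male 2) to 42.3% (homozygous male 1) of the members' transcripts in TPM. Cyp3a11, the main Cyp3a enzyme of drug and steroid oxidation, followed at 1449 ± 872 FPKM (SD, n = 9). Next came the male-biased testosterone hydroxylase Cyp2d9 (867 ± 264 FPKM), the epoxygenase Cyp2c29 (812 ± 281 FPKM), the naphthalene oxidase Cyp2f2 (782 ± 156 FPKM), Cyp2d10 (709 ± 65.9 FPKM) and Cyp2d26 (671 ± 98.6 FPKM). Cyp1a2, an aryl hydrocarbon receptor target that oxidises caffeine, stood at 502 ± 144 FPKM, Cyp2c50 at 462 ± 116 FPKM, and Cyp2c70, which makes the muricholic bile acids of the mouse, at 428 ± 121 FPKM. Neighbours in this order from Cyp2d9 downwards differed by less than the larger of their SDs over animals, except Cyp2d26 and Cyp1a2. Cyp3a11 had the largest SD of these 10 in proportion to its mean, with a range over males from 48.3 to 2845 FPKM.

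**Figure D1:**
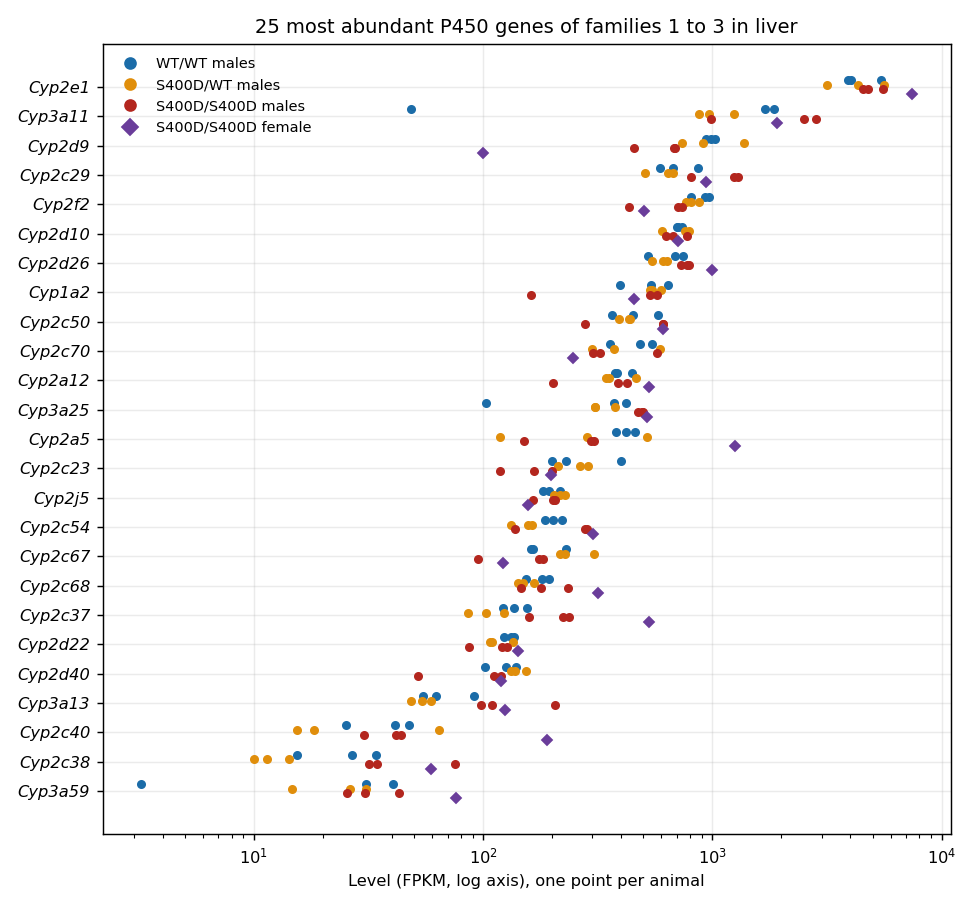
Levels of the 25 most abundant P450 genes of families 1 to 3 in FPKM on a log axis, with one point per animal, coloured by genotype and sex. Cyp2e1 leads in all 10 livers, one wild-type male lies far below the others for Cyp3a11, Cyp3a25 and Cyp3a59, and the female lies far below the males for Cyp2d9.

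For comparisons between animals, levels are given as CPM, which is the read count relative to library size, with libraries brought to one scale by TMM factors. Of the 56 members, 44 passed the low-count filter in the males. The 12 that did not had at most 13 reads in any male, and 3 of them (Cyp2b23, Cyp2j12 and Cyp2j13) had 0 reads in all 10 libraries. In bulk tissue fewer expressing cells and less RNA per cell cannot be told apart.

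Between homozygous and wild-type males, no member passed the threshold over all 12427 genes tested with edgeR (0 of 44, and 0% of all genes). An unadjusted p under 0.05 was reached by 10 of 44 members (22.7%), against 14.9% of all genes. On the higher side were 5 (all genes 6.82%), Cyp2b10, Cyp3a13, Cyp2c38, Cyp2c29 and Cyp2c37, and on the lower side 5 (8.08%), Cyp2u1, Cyp2c23, Cyp2d9, Cyp2f2 and Cyp2j6. The median log2 fold change of the members was 0.03 (all genes 0.00), while the median of its absolute size was 0.36 (all genes 0.19). DESeq2, a second count test run as an alternative, called 2 members (2.38% of all genes), Cyp2b10 and Cyp2u1, and limma on log2(FPKM + 1) called 0. Without wild-type male 2 the 10 members with an unadjusted p under 0.05 became 5, while the share of all genes fell to 8.9%.

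Between heterozygous and wild-type males fewer members stood out. Again 0 of 44 members passed (0% of all genes), and 4 of 44 had an unadjusted p under 0.05 (9.09%, all genes 4.19%): 3 on the lower side (all genes 2.52%), Cyp2c39, Cyp2c38 and Cyp2c37, and 1 on the higher (1.67%), Cyp2u1. The median log2 fold change of the members was -0.12 (all genes 0.01), and 15 of 44 were positive (34.1%, all genes 51.6%). DESeq2 called 0 members (0.0364% of all genes). Without heterozygous male 3, 7 members had an unadjusted p under 0.05 (all genes 3.8%).

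Between homozygous and heterozygous males no member passed (0 of 44, 0% of all genes), with a smallest adjusted p of 0.104, and 14 of 44 had an unadjusted p under 0.05 (31.8%, all genes 17.2%), 8 higher (all genes 8.25%) and 6 lower (8.92%) in the homozygotes. The median log2 fold change was 0.23 (all genes 0.00) and its median absolute size 0.57 (all genes 0.20). DESeq2 called 7 members (4.66% of all genes): Cyp2b10, Cyp2c29, Cyp2c37, Cyp2c38, Cyp2c39 and Cyp3a13 as higher and Cyp2u1 as lower in homozygotes. Without heterozygous male 1 the 14 became 9, and the share of all genes became 12%. These comparisons share animals in pairs, so they are not independent of each other. By their means, 18 of 44 members were ordered homozygous, wild type, heterozygous from high to low, 10 wild type, heterozygous, homozygous, 9 heterozygous, wild type, homozygous, and the other 7 in other ways.

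**Figure D2:**
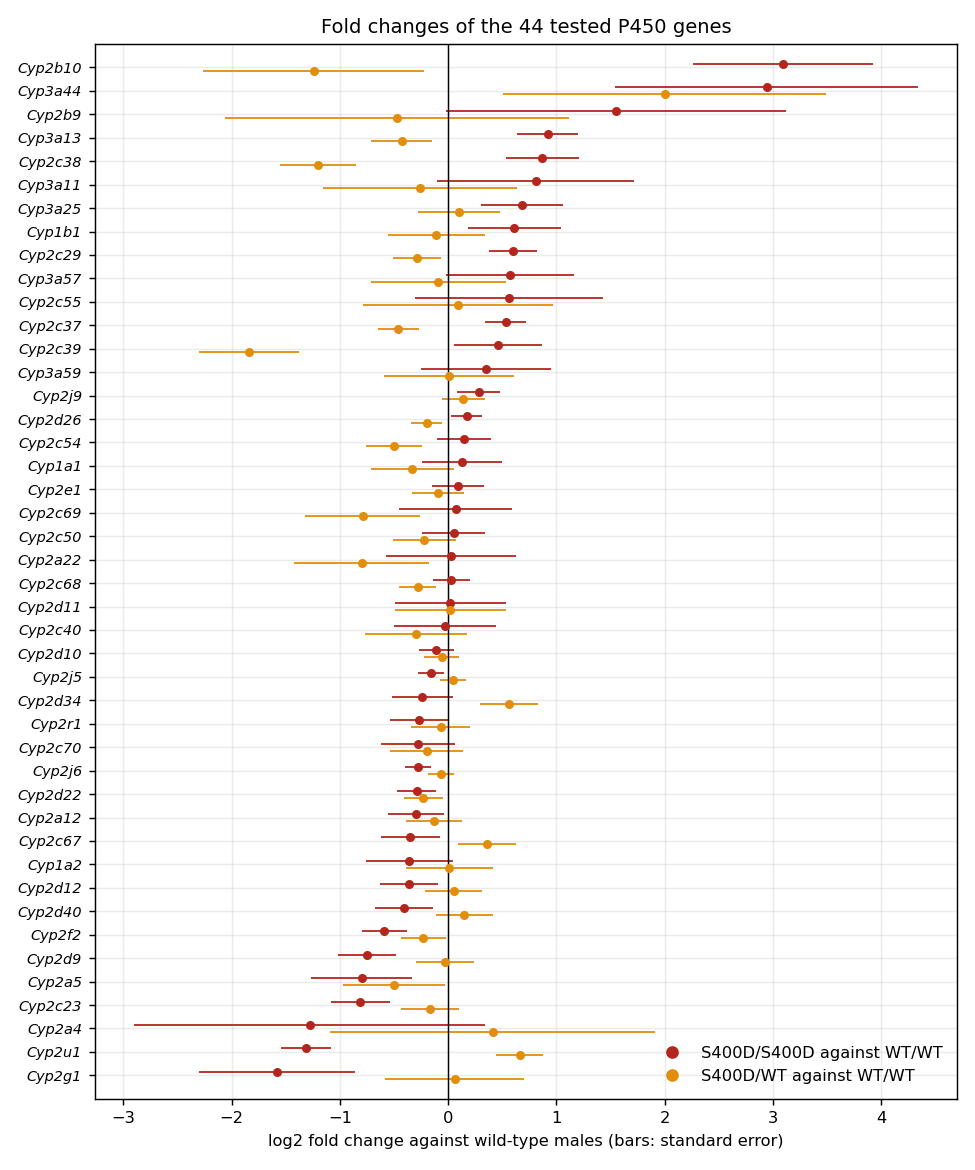
Log2 fold changes of the 44 tested P450 genes against wild-type males, with standard errors, for homozygous (red) and heterozygous (orange) males. In homozygotes Cyp2b10 lies at 3.09 ± 0.83, Cyp2u1 at -1.31 ± 0.23 and Cyp3a11 at 0.81 ± 0.91, and no gene passed the adjusted threshold.

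Cyp2u1, a fatty acid hydroxylase (chromosome 3, 131290491 to 131304157), was highest in heterozygotes and lowest in homozygotes. Its level was 11.8, 11.2 and 8.19 CPM in the wild-type males, 17.1, 18.7 and 13.7 CPM in the heterozygotes, 2.97, 4.63 and 5.00 CPM in the homozygotes and 1.59 CPM in the female. None of the 3 male groups overlapped, and the female was below every male. The log2 fold change was -1.31 ± 0.23 (SE) in homozygotes against wild type (edgeR adjusted p = 0.147), 0.66 ± 0.22 in heterozygotes against wild type (adjusted p = 0.972) and -1.97 ± 0.23 in homozygotes against heterozygotes (adjusted p = 0.104). With DESeq2 the first of these had an adjusted p of 0.000139. Over the 16 alternatives the homozygous difference from wild type ran from -1.45 to -0.55, and without homozygous male 1 it was -1.11.

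Cyp2b10, the classical target of CAR, was at low level in every liver. Wild-type males had 1.17, 0.322 and 1.42 CPM, heterozygotes 0.246, 0.177 and 0.789 CPM, homozygotes 18.6, 3.51 and 2.95 CPM, and the female 5.85 CPM. All 3 homozygous males were above the other 6 males, but homozygous male 1 was 5.76 times the mean of the other homozygotes. Homozygotes differed from wild type by 3.09 ± 0.83 (log2, SE; edgeR adjusted p = 0.207), and without homozygous male 1 by 1.72 (adjusted p = 0.329). DESeq2 gave 3.11 with an adjusted p of 0.00728. The other Cyp2b genes are described with the female.

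In the Cyp2c cluster on chromosome 19, the arachidonic acid oxygenases Cyp2c37, Cyp2c38 and Cyp2c29 and the retinoic acid hydroxylase Cyp2c39 had their lowest mean in heterozygotes and their highest in homozygotes. Cyp2c37 stood at 235, 209 and 217 CPM in wild-type males, 197, 128 and 154 CPM in heterozygotes, 358, 240 and 358 CPM in homozygotes and 785 CPM in the female, with no overlap between any of the male groups. Its log2 fold change was 0.53 ± 0.19 (SE) in homozygotes and -0.46 ± 0.19 in heterozygotes against wild type, and 1.00 ± 0.20 between homozygotes and heterozygotes (edgeR adjusted p = 0.272, 0.972 and 0.104). For Cyp2c38 the wild-type males had 46.6, 31.2 and 62.8 CPM, the heterozygotes 17.8, 19.1 and 24.1 CPM, the homozygotes 135, 57.2 and 64.0 CPM and the female 105 CPM. All 3 heterozygotes were below all other animals, while homozygotes and wild type overlapped. The difference of heterozygotes from wild type was -1.20 ± 0.35, and that of homozygotes from wild type 0.87 ± 0.34, or 0.37 without homozygous male 1. Cyp2c39 was at low level, with 1.64, 2.70 and 4.74 CPM in wild-type males, 0.799, 0.590 and 1.13 CPM in heterozygotes, 5.48, 2.69 and 4.28 CPM in homozygotes and 15.7 CPM in the female. It had the largest difference of heterozygotes from wild type among the members at an unadjusted p under 0.05, -1.84 ± 0.46 (edgeR adjusted p = 0.972). Cyp2c29 stood at 1274, 992 and 1053 CPM in wild-type males, 999, 975 and 733 CPM in heterozygotes and 1191, 1821 and 2017 CPM in homozygotes, so homozygotes overlapped wild type but not the heterozygotes. Between homozygotes and heterozygotes DESeq2 gave adjusted p = 0.000819 for Cyp2c37, 4.55e-06 for Cyp2c38, 0.000468 for Cyp2c39 and 0.00419 for Cyp2c29, whereas edgeR gave 0.104 or more for each.

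The other tested Cyp2c genes were mixed. By their means Cyp2c50, Cyp2c54, Cyp2c68 and Cyp2c69 shared this order, whereas Cyp2c23, Cyp2c40, Cyp2c55, Cyp2c67 and Cyp2c70 did not. Cyp2c23, an epoxygenase that lies apart from the rest of the cluster (44005022 to 44029256), had 479 ± 162 CPM in wild-type males, 426 ± 79.4 CPM in heterozygotes and 272 ± 67.9 CPM in homozygotes (SD, n = 3 each). Its homozygotes did not overlap either of the other groups, and their log2 difference from wild type was -0.81 ± 0.27 (SE; edgeR adjusted p = 0.254). Cyp2c67 had 354 ± 85.2 CPM in heterozygotes and 216 ± 72.2 CPM in homozygotes, without overlap, and 276 ± 43.4 CPM in wild type. Cyp2c54 had a lower mean in heterozygotes (217 ± 31.2 CPM) than in wild type (307 ± 23.2 CPM) and homozygotes (339 ± 124 CPM). Cyp2c50, Cyp2c68 and Cyp2c70 had log2 differences between homozygotes and wild type of 0.05 ± 0.29, 0.03 ± 0.17 and -0.28 ± 0.34 (SE).

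Cyp3a13, which lies at 137892933 to 137925610 on chromosome 5, outside the block that holds the other 8 Cyp3a genes (145345149 to 146114978), was highest in homozygotes. Wild-type males had 168, 166 and 256 CPM, heterozygotes 153, 157 and 128 CPM, homozygotes 546, 261 and 306 CPM, and the female 324 CPM. No male groups overlapped. The log2 fold change was 0.92 ± 0.28 (SE) against wild type and 1.35 ± 0.28 against heterozygotes (edgeR adjusted p = 0.234 and 0.105), and the first was 0.53 without homozygous male 1. DESeq2 called the second (adjusted p = 0.000762).

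**Figure D3:**
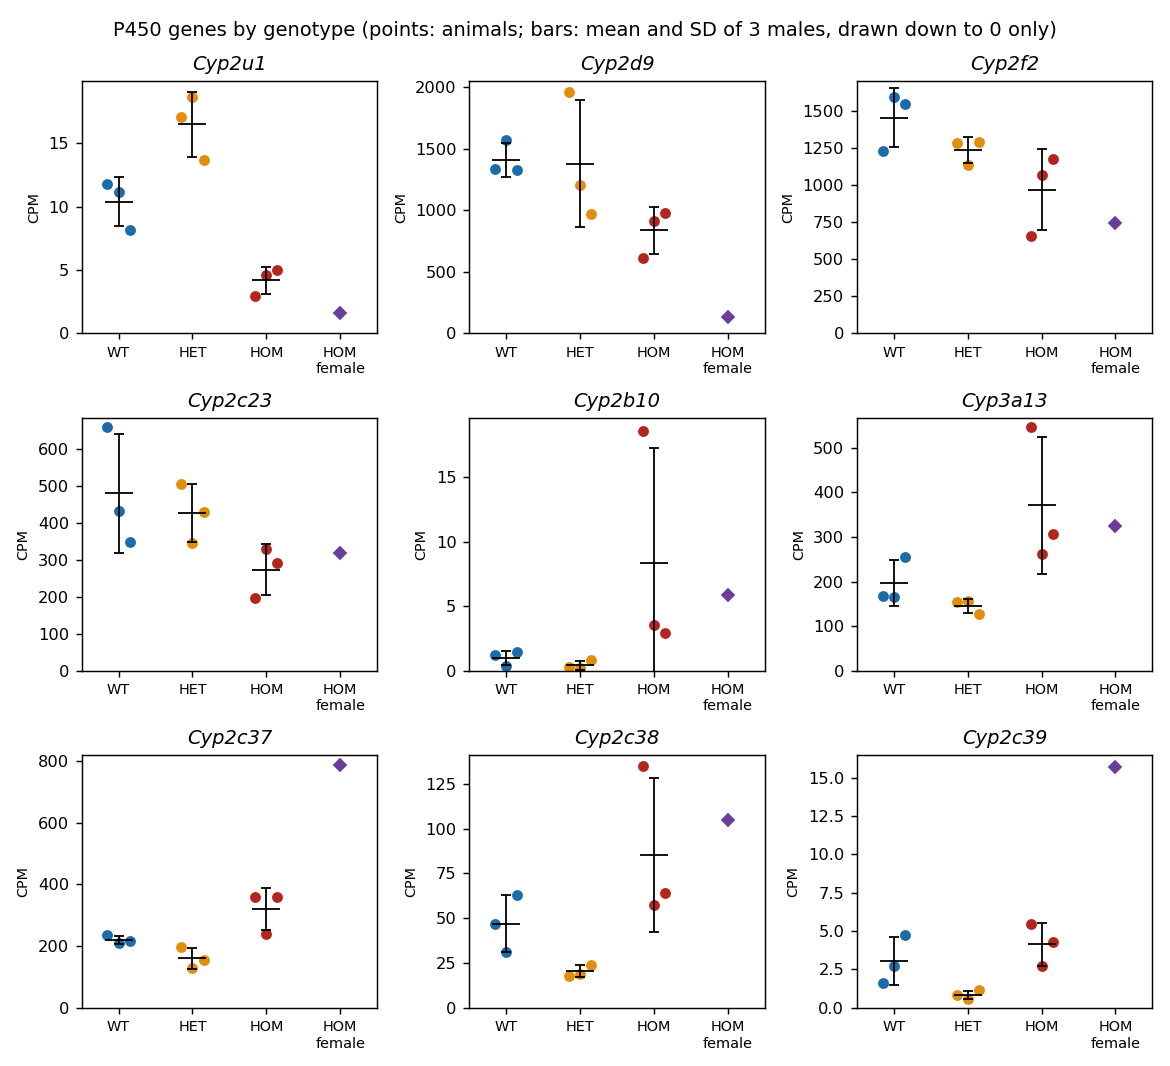
CPM of 9 P450 genes in each animal, with the mean and SD of the 3 males of a genotype, drawn down to 0 only, and the single female as a diamond. Cyp2u1, Cyp2c37 and Cyp3a13 show no overlap between any of the male genotypes, and one homozygous male lies far above the others for Cyp2b10, Cyp3a13 and Cyp2c38.

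Without overlap, 5 members were higher (8.88% of all genes) and 6 lower (11.3%) in homozygotes than in wild-type males, where the higher group had to average 1 CPM or more. The lower ones were Cyp2a5, Cyp2c23, Cyp2d9, Cyp2f2, Cyp2j6 and Cyp2u1, and the higher ones Cyp2b10, Cyp2c37, Cyp2d26, Cyp3a13 and Cyp3a25. Heterozygotes were above wild type for 1 member (4.31%) and below for 6 (5.67%), and homozygotes above heterozygotes for 8 (10.5%) and below for 7 (11.3%). Cyp2d9, the testosterone hydroxylase, had 1334, 1573 and 1330 CPM in wild-type males, 1960, 1206 and 970 CPM in heterozygotes, 616, 917 and 979 CPM in homozygotes and 132 CPM in the female. Homozygotes were below every wild-type male, at -0.75 ± 0.27 (log2, SE; edgeR adjusted p = 0.270), and the female was below every male. Cyp2f2 had 1458 ± 198 CPM in wild type, 1240 ± 87.4 CPM in heterozygotes and 970 ± 273 CPM in homozygotes (SD, n = 3 each). Its log2 fold change in homozygotes was -0.59 ± 0.21 (SE; edgeR adjusted p = 0.274). Cyp2j6 had 73.6 ± 5.84 CPM in wild type and 60.5 ± 9.09 CPM in homozygotes, and Cyp2d26 924 ± 116 and 1040 ± 21 CPM (SD, n = 3 each). At low level, Cyp2g1 (0.548 ± 0.344 CPM in homozygotes against 1.71 ± 0.912 CPM in heterozygotes) and Cyp2d34 (1.51 ± 0.369 against 2.63 ± 0.615 CPM) had lower means in homozygotes than in heterozygotes.

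For the abundant members Cyp2e1, Cyp2d10 and Cyp1a2 the differences between genotypes were smaller than the spread between animals. Cyp2e1 stood at 7949, 6668 and 6006 CPM in wild-type males, 8616, 4537 and 6160 CPM in heterozygotes and 8088, 6917 and 6975 CPM in homozygotes, and the log2 fold change of homozygotes was 0.09 ± 0.24 (SE). Cyp2d10 had 1005 ± 57.6 CPM in wild type and 931 ± 130 CPM in homozygotes (SD, n = 3 each). Among the aryl hydrocarbon receptor targets, Cyp1a2 stood at 1022, 967 and 658 CPM in wild type, 996, 848 and 830 CPM in heterozygotes and 256, 903 and 894 CPM in homozygotes, so 1 homozygote lay far below the rest. Cyp1a1 and Cyp1b1, better known outside the unexposed liver, did not exceed 1.69 and 1.60 CPM in any male. Cyp2r1, a vitamin D hydroxylase, ranged from 5.60 to 12.9 CPM over males, and the epoxygenase Cyp2j5 from 382 to 529 CPM. For Cyp2j5 every homozygous male was below every heterozygote (means 448 and 515 CPM, log2 difference -0.20 ± 0.12, SE).

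Single animals stood apart for several members. With a mean of 1 CPM or more in males required, the highest male was over 10-fold above the lowest, or above the level of 3 reads where the lowest had fewer, for 6 of 44 members (13.6%, all genes 1.82%): Cyp2a4, Cyp2b9, Cyp2b10, Cyp2c55, Cyp2g1 and Cyp3a11. Wild-type male 2 was the lowest of all 9 males for 7 of 44 members (15.9%, all genes 9.23%), among them 4 of the Cyp3a block: Cyp3a11, Cyp3a25, Cyp3a57 and Cyp3a59. Cyp3a11 stood at 3254, 95.2 and 3107 CPM in wild-type males 1, 2 and 3, 1612, 1662 and 2119 CPM in heterozygotes, 1728, 4353 and 5222 CPM in homozygotes and 3253 CPM in the female. The next lowest male had 16.9 times the level of wild-type male 2. Cyp3a25 had 634, 198 and 748 CPM and Cyp3a59 95.5, 10.8 and 80.2 CPM in the wild-type males, against 510 to 885 and 44.6 to 102 CPM in the other 2 genotypes. Cyp3a57 was near the floor, with 2 reads in wild-type male 2 and 7 to 21 reads in the other males. Cyp3a13, outside the block, was at 166 CPM in wild-type male 2, beside 168 and 256 CPM in the other wild-type males. The log2 difference of homozygotes from wild type for Cyp3a11 was 0.81 ± 0.91 (SE; edgeR adjusted p = 0.691), and 0.24 ± 0.40 without wild-type male 2. For heterozygotes it was -0.26 ± 0.90, and -0.82 ± 0.39 without that animal.

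**Figure D4:**
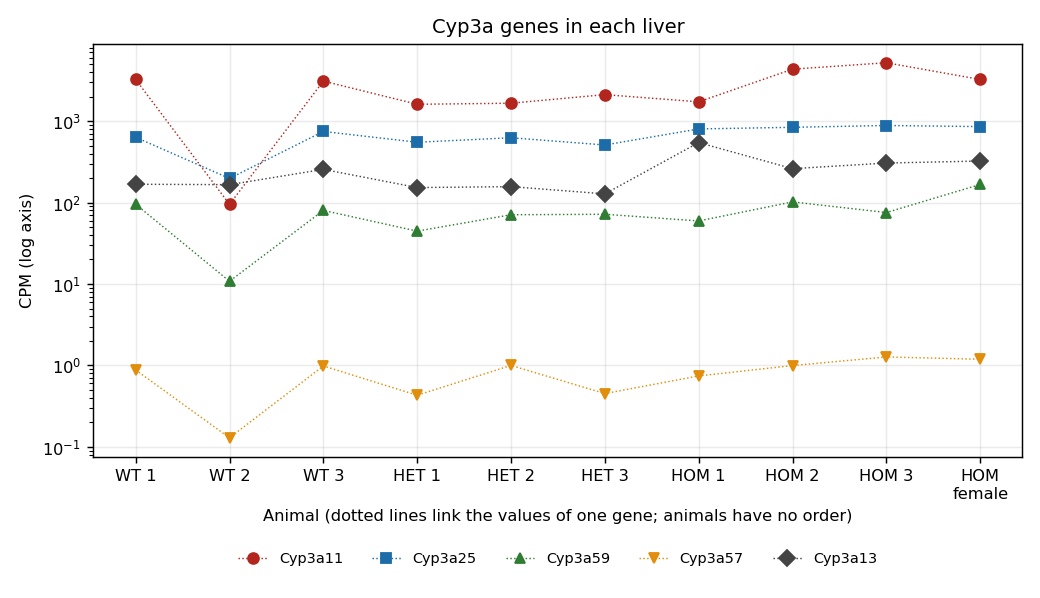
CPM of 5 Cyp3a genes on a log axis in each of the 10 livers, with the values of one gene joined by a dotted line. Cyp3a11 was 95.2 CPM in wild-type male 2 and at least 1612 CPM in every other animal. Cyp3a25, Cyp3a59 and Cyp3a57 (only 2 reads) were lowest in the same animal, and Cyp3a13 was at 166 CPM there.

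Homozygous male 1 was the lowest of all 9 males for 17 of 44 members (38.6%, all genes 21.3%), including Cyp1a2, Cyp2a12, Cyp2c23, Cyp2c50, Cyp2d9 and Cyp2f2. Cyp2c55 was 0.228 CPM in this animal against 18 and 8.13 CPM in the other homozygotes. In contrast, it had the highest Cyp2b10, Cyp2c38 and Cyp3a13 of all males. It also had the highest Por among the males, 877 CPM (female 724 CPM, other males 117 to 527 CPM), and 84.6 CPM of the female-biased factor Cux2 (female 70.1 CPM, other males 0.338 to 11.8 CPM). Without this animal, the log2 difference of homozygotes from wild type was -0.63 for Cyp2c23, -0.57 for Cyp2d9, -0.37 for Cyp2f2 and -0.16 for Cyp2j6, and 0.44 for Cyp2c37 and 0.80 for Cyp2c29. An unadjusted p under 0.05 was then no longer reached by Cyp2d9 (0.0652), Cyp2j6 (0.128), Cyp2c37 (0.0676) and Cyp2c38 (0.181), in edgeR's test.

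To set the female against the 3 homozygous males, all 10 animals were fitted, and the lone female was assumed to vary as the males of a group do. Sex cannot be told apart from the individual here, nor from a difference in clock genes. The clock factor Dbp stood at 205 CPM in the female and at 4.63, 12.9 and 1.27 CPM in the homozygous males. Over 19 clock genes the median log2 difference was 0.92 (all genes -0.01), with 13 positive. In the fit of all 10 animals the low-count filter can be passed through a single library, so 49 members were tested. Cyp2b13, Cyp2j8, Cyp2s1, Cyp3a41a and Cyp3a41b entered beside the 44 of the male fit. Cyp2b13 alone passed the threshold (1 of 49, 0.0772% of all genes), and it is one of these 5. Over the 44 members also tested in the males, which leaves these 5 out, 12 had an unadjusted p under 0.05 (27.3%, all genes 10.4%), 10 of them higher (all genes 5.09%) and 2 lower (5.29%) in the female. Counting positions over the same 44, the female was above all 9 males for 15 (34.1%, all genes 11.4%) and below all of them for 5 (11.4%, all genes 10.5%). DESeq2 called 7 members (0.838% of all genes): Cyp2b13, Cyp2c69, Cyp2a5, Cyp2c37, Cyp2c40 and Cyp2g1 as higher and Cyp2d9 as lower.

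Cyp2b13, a female-biased gene, had 5726 reads in the female and 0 to 13 reads in each male, which is 325 CPM against 0.0571, 0.469 and 0.783 CPM in the homozygous males. The log2 fold change was 9.53 ± 0.57 (SE; edgeR adjusted p = 9.43e-05) and lay between 9.01 and 10.24 over the alternatives that tested it. It was not tested where at least 1 CPM in 3 samples or 1 FPKM in 3 samples was required, since only 1 animal expressed it. Cyp2b9, with the near-identical promoter printed above, was also detected in males. It stood at 50.4, 0 and 1.72 CPM in wild-type males, 0.307, 3.19 and 34.1 CPM in heterozygotes, 13.3, 60.1 and 80.7 CPM in homozygotes and 464 CPM in the female. The count of 0 in wild-type male 2 allows up to 0.193 CPM, which is 3 reads (counting error only). The female was 5.75 times the highest male, and the log2 difference from homozygous males was 3.18 ± 1.97 (SE; edgeR adjusted p = 0.626).

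Among the Cyp2a genes, Cyp2a4, a steroid hydroxylase, stood at 11.0, 0 and 0.862 CPM in wild-type males, 0.184, 0.590 and 15.1 CPM in heterozygotes, 0.685, 1.17 and 3.07 CPM in homozygotes and 309 CPM in the female, which was 20.5 times the highest male. Cyp2a5, the coumarin hydroxylase with the near-identical promoter, was far higher in males: 654, 610 and 624 CPM in wild type, 774, 165 and 392 CPM in heterozygotes, and 213, 416 and 454 CPM in homozygotes, against 1735 CPM in the female. Their transcripts shared 11.2% (Cyp2a4) and 9.56% (Cyp2a5) of 100-base windows with each other. The female also exceeded the highest male 5.15-fold for Cyp2a22 and 1.14-fold for Cyp2a12, a bile acid hydroxylase. Log2 differences from homozygous males were 7.56 ± 1.77 for Cyp2a4, 3.32 ± 0.73 for Cyp2a22 and 2.26 ± 0.61 for Cyp2a5 (edgeR adjusted p = 0.327, 0.306 and 0.328).

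On chromosome 19, Cyp2c69 had 216 CPM in the female and 5.34 to 28.9 CPM over the males, and Cyp2c40 277 CPM against 24.5 to 93.6 CPM, with the limit that their reads overlap. Cyp2c37 (785 CPM, highest male 358 CPM), Cyp2c39 and Cyp2c68 (451 CPM, highest male 343 CPM) were also above all males. In the Cyp3a block, Cyp3a44 had 364 reads and Cyp3a41a 143 reads in the female, against at most 45 and 5 reads in any male. Both are known as female-specific. Cyp3a16 had 1 read in the female and 1 in heterozygous male 3. Cyp2e1 (10552 CPM) and Cyp2d26 (1305 CPM) exceeded the highest male only 1.22-fold and 1.23-fold. Below all males were Cyp2d9, with the lowest male at 4.67 times the female, Cyp2u1 at 1.87 times, Cyp2c70 at 1.22 times, Cyp2j6 at 1.07 times and Cyp2j5 at 1.04 times. Cyp2d9 had a log2 difference of -2.66 ± 0.45 (SE; edgeR adjusted p = 0.149), which DESeq2 (adjusted p = 8.42e-09) and limma on log2(FPKM + 1) (adjusted p = 0.0392) called.

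**Figure D5:**
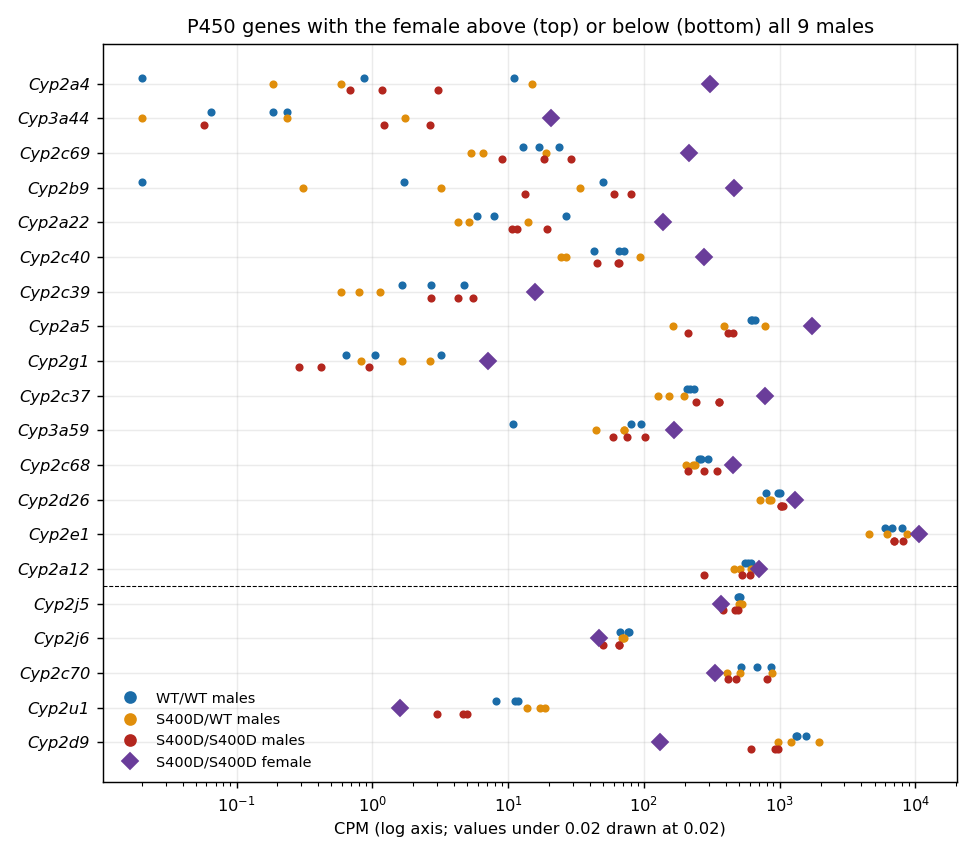
CPM on a log axis of the P450 genes tested in males for which the homozygous female (diamond) was above all 9 males (top, 15 genes) or below all of them (bottom, 5 genes), ordered by the ratio to the highest male. Cyp2a4 and Cyp3a44 have the widest gaps at the top, and Cyp2d9 and Cyp2u1 lie furthest below.

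Genes with the female on top also varied among the males. Of these 15, wild-type male 1 was the highest wild-type animal in 12 (80%, 43.3% of all genes with the female above all males), and heterozygous male 3 the highest heterozygote in 11 (73.3%, 39.4%). Cyp2b9 and Cyp2a4 above show this, as does Cyp2a22 with 26.9, 5.92 and 7.82 CPM in wild type and 5.16, 4.25 and 13.9 CPM in heterozygotes. Over all 44 tested members wild-type male 1 was the highest wild-type animal in 25 (56.8%, all genes 36%). Heterozygous male 3 was the highest heterozygote in 17 of the 44 (38.6%, all genes 32%). The same 2 animals had the highest summed level of 12 Kupffer cell and macrophage markers in their group, 605 CPM against 249 and 192 CPM in wild type and 567 CPM against 245 and 475 CPM in heterozygotes, and of 9 sinusoidal endothelial markers, 275 CPM against 112 and 120 CPM and 242 CPM against 165 and 211 CPM. For 10 stellate cell and matrix markers wild-type male 1 was again highest (317 CPM against 161 and 117 CPM), but heterozygous male 3 was not (328 CPM against 230 and 374 CPM). None of these markers was at 0 in any liver, and their part in the P450 values was not tested.

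The partners and regulators were read from lists of their own. Of 19 electron donor and haem genes, 1 was higher and 5 lower in homozygous than in wild-type males at an unadjusted p under 0.05 (31.6%, all genes 14.9%), with a median log2 fold change of -0.12 (all genes 0.00), and 0 passed the adjusted threshold of edgeR. The higher one was Hmox1, which breaks down haem (1.08 ± 0.31), and the lower ones included the haem synthesis genes Alad (-0.68 ± 0.22), Ppox (-0.32 ± 0.12) and Urod (-0.23 ± 0.09). Alas1, the rate-limiting enzyme of haem synthesis, varied from 38.0 CPM in heterozygous male 2 to 602 CPM in heterozygous male 1. Of 16 tested receptors and partners, 2 were higher and 1 lower (18.8%), close to the share of all genes. CAR (Nr1i3) was at 151, 98.1 and 160 CPM in wild-type males, 160, 134 and 156 CPM in heterozygotes, 204, 196 and 254 CPM in homozygotes and 402 CPM in the female. Homozygotes were above all other males, by 0.68 ± 0.19 (log2, SE) over wild type (edgeR adjusted p = 0.209), whereas PXR (Nr1i2) had 66.9 ± 13.8 and 59.1 ± 3.41 CPM (SD, n = 3 each).

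Of 19 liver factors and growth hormone related regulators, 0 were higher and 3 lower in homozygotes than in wild type (15.8%, also close to all genes, median -0.10): Igf1 (-0.78 ± 0.17), Esr1 (-0.60 ± 0.16) and Cebpa (-0.37 ± 0.15). In heterozygotes 1 was higher and 1 lower than in wild type (10.5%, all genes 4.19%). The higher was the male-biased repressor Bcl6 (1.36 ± 0.33) and the lower the Stat5 target Cish (-2.27 ± 0.54), each with an edgeR adjusted p of 0.972. Among 19 genes of other P450 families, 2 were higher and 4 lower in homozygotes than in wild type (31.6%). These were Cyp39a1 (1.99 ± 0.51) and Cyp17a1 (1.58 ± 0.67), and the male-biased Cyp4a12b (-1.96 ± 0.35) and Cyp4a12a (-1.27 ± 0.46) with the sterol hydroxylases Cyp7b1 (-1.75 ± 0.49) and Cyp7a1 (-1.06 ± 0.46). In the female Cyp4a12b was the one gene of these lists that passed (-6.96 ± 0.95, edgeR adjusted p = 0.0498).

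Further lists cover the clock, cell types and zones of the liver. Of 19 clock genes, 5 were higher and 9 lower in homozygous than in wild-type males at an unadjusted p under 0.05 (73.7%, all genes 14.9%). Dbp, a clock-driven factor known to act on Cyp2a5, stood at 128, 148 and 158 CPM in wild type, 247, 6.02 and 105 CPM in heterozygotes, 4.63, 12.9 and 1.27 CPM in homozygotes and 205 CPM in the female. Heterozygous male 2 was thus with the homozygotes for Dbp. It had the lowest Cyp2a5 (165 CPM), Cyp2e1 (4537 CPM) and Cyp2c37 (128 CPM) of all males and the highest Cyp2u1 (18.7 CPM). These members were picked from a longer list. This animal was also the lowest of all males for Cyp2a22, Cyp2b10, Cyp2c39, Cyp2c68, Cyp2c70 and Cyp2d26, and the highest for Cyp2d34, Cyp2j5 and Cyp2j9. The homozygous and wild-type means were 361 and 629 CPM for Cyp2a5 and 7327 and 6874 CPM for Cyp2e1. For Cyp2c37 they were 319 and 220 CPM, and for Cyp2u1 4.2 and 10.4 CPM. Hepatocyte markers summed to 114152 to 128000 CPM in wild type, 91284 to 114617 CPM in heterozygotes and 128823 to 150438 CPM in homozygotes, with 6 of 10 positive between homozygotes and wild type. Most of this sum is albumin (Alb); the other 9 summed to 40610 to 48020, 40393 to 43036 and 40704 to 44358 CPM, which overlap. Kupffer cell markers were positive in 12 of 12 (median 0.63) and sinusoidal markers in 9 of 9 (median 0.56) and stellate and matrix markers in 8 of 10 (median 0.60), but their sums overlapped between the genotypes. Pericentral hepatocyte markers, the zone where most P450 enzymes are made, summed to 3101 to 4255 CPM in wild type and 2279 to 4391 CPM in homozygotes, lowest in homozygous male 1. In that animal Aldh1a1 (389 CPM), Gulo, Rhbg, Axin2 and Lgr5 were each the lowest of all males. Glul, Slc1a2 and Oat (1004 CPM) were not. Periportal markers summed to 22922 CPM in homozygous male 1, against 11457 to 17798 CPM in the other males. Its Pck1 (6778 CPM), Cps1, Arg1, Asl and Gls2 were each the highest of all males, while its Cdh1 (15.9 CPM) was the lowest. The part of the clock, of cell types and of zones in the P450 differences was not tested.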

How the data were processed

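Liver RNA of 10 mice was measured. Per the labels' protocols, mRNA was taken with oligo(dT) beads, fragmented and primed with random hexamers. The table deposited by the authors gives expected counts (estimated reads per transcript, not normalised), FPKM and TPM for 77712 transcripts. HISAT, Bowtie2 and the build GRCm38.p6 stand in the submitters' processing notes; counting program, strand use and versions: not given in the sources used here. Transcripts were summed to 19271 genes; 94.5% of nonzero sums lay within 0.05 of a whole number, and sums were rounded. FPKM served for levels between genes and for limma, TPM for shares.

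The 9 males were fitted together with edgeR 4.0.16 (R 4.3.3; quasi-likelihood test, TMM, its low-count filter by group, Benjamini-Hochberg over all genes tested, threshold 0.05), the female in a fit of all 10, where counts of members were restricted to those also tested in males after the data were seen. Tests were tried on simulated data. DESeq2 1.42.0 and limma 3.58.1 were alternatives. Promoters came from RefSeq (GRCm38.p6), windows from the longest coding transcript in GENCODE M21, alignments from edlib 1.3.9.post1.

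Members, lists and tests were chosen with earlier results of these data known. Named with values were the 10 most abundant members, those called, those with the 10 smallest unadjusted p per comparison of males, and near-identical copies of these. Cyp2a4, Cyp2a5, Cyp2a12, Cyp2a22, Cyp2b9, Cyp2c40, Cyp2c54, Cyp2c55, Cyp2c68, Cyp2c69, Cyp2g1, Cyp2j5, Cyp2r1, Cyp1a1, Cyp1b1, Cyp3a16, Cyp3a25, Cyp3a41a, Cyp3a44, Cyp3a57, Cyp3a59, Alas1, Por, Cux2 and PXR were chosen after their values were seen, as were the animals singled out.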

Additional observations from a re-analysis of the deposited data

How the results depend on the processing

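The 44 results of single members with an unadjusted p under 0.05 gave 596 values under the alternatives, of which 0 changed direction, 16 were called where the values in the report were not, and 0 lost a call. Of the other 137 results, 62 had the opposite sign under at least 1 alternative. The number of members past the adjusted threshold depended on the test: DESeq2 called 2 between homozygous and wild-type males, 7 between homozygous and heterozygous males and 7 in the female, against 0, 0 and 1 with edgeR; the cause was not tested. The call in the female became 0 with a requirement of at least 1 CPM in 3 samples and 0 with limma on log2(FPKM + 0.1), because Cyp2b13 was not tested there. The number of members with an unadjusted p under 0.05 was counted again with 1 male left out. Between homozygous and wild-type males it ran from 5 to 10, while the share of all genes ran from 8.9% to 17.5%. Between heterozygous and wild-type males it ran from 3 to 7 (all genes 2.06% to 10.2%). Between homozygous and heterozygous males it ran from 9 to 16 (all genes 12% to 20.9%). The replicate numbers did not pair the animals: correlations of same-numbered animals ran from -0.419 to 0.181. With the number as a replicate block, 10, 4 and 9 members had an unadjusted p under 0.05 in the 3 comparisons of males (all genes 12.8%, 3.35% and 14.9%), and 0 passed the adjusted threshold. Depth limits the members under 1 CPM, where 3 reads are 0.169 to 0.193 CPM.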
